A study of Mus musculus with 11 samples.

Results

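Krüppel-like factors (KLFs) are zinc finger transcription factors, and 10 of their genes, *Klf2*, *Klf3*, *Klf4*, *Klf6*, *Klf7*, *Klf9*, *Klf10*, *Klf11*, *Klf13* and *Klf15*, were followed here in liver sinusoidal endothelial cells (ECs) of mice raised with or without a microbiota. They were picked by gene symbol from the 29307 genes of the count table, with earlier results of these data known. All 10 had enough counts to be tested, as did 12905 genes in all. The table holds 1 RNA library per mouse, from 6 conventionally raised (CONV-R) and 5 germ-free (GF) male C57BL/6J mice aged 10 to 12 weeks. CONV-R mice carried a specific pathogen-free microbiota, GF mice had none, and no transgene or drug is named for either group. ECs were enriched from dissociated livers with magnetic beads for CD146 and then sorted for CD31, CD105 and CD146. The sorted cells were of low viability by the study's own account, and cDNA was amplified before sequencing. GF livers gave fewer sorted ECs and less RNA than CONV-R livers, so recovery and colonization cannot be told apart in these libraries. The CONV-R mice are numbered 1 to 6 and the GF mice 1, 2, 4, 5 and 6, as in the sample labels.

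KLFs bind GC-rich and CACCC-type DNA elements through 3 zinc fingers at the C-terminus, and differ in the N-terminal part that recruits coactivators or corepressors. In blood vessels KLF2 and KLF4 are the best known, since laminar flow switches them on through the MEKK3, MEK5, ERK5 and MEF2 cascade, and they favour a quiescent, anticoagulant endothelium. KLF2 and KLF4, together with KLF6 and KLF7, often act as activators, KLF3 recruits the corepressor CtBP, and KLF9, KLF10, KLF11 and KLF13 share a motif that binds SIN3A. *Klf9* and *Klf15* are also known as genes that glucocorticoids induce and that cycle with the circadian clock.

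The DNA before the start site is shown for the 4 genes with the smallest p values, as the region in which regulators of transcription act. The bases are from RefSeq on GRCm38.p6, read 5′ to 3′ along the gene, from 250 bases before the RefSeq start to the third base of the RefSeq transcript. The stretch of *Klf2* is cut to 221 bases, because its GENCODE M21 gene begins upstream of the RefSeq start, and ends just before that gene. Capitals mark a MEF2 element in *Klf2* and E-boxes (CACGTG, the element that CLOCK and BMAL1 bind) in *Klf4* and *Klf15*.
Klf2 (chr8:72318812-72319032, plus strand): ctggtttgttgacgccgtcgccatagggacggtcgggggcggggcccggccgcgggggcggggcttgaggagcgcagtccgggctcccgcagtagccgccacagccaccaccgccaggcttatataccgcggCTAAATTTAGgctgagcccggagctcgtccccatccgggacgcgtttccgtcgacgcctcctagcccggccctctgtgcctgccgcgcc
Klf4 (chr4:55532473-55532725, minus strand): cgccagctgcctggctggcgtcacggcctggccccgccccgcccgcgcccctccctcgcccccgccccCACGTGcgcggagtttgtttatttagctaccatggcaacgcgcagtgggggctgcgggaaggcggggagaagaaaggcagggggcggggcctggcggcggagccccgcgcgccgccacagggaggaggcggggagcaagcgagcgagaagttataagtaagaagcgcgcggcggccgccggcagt
Klf9 (chr19:23140976-23141228, plus strand): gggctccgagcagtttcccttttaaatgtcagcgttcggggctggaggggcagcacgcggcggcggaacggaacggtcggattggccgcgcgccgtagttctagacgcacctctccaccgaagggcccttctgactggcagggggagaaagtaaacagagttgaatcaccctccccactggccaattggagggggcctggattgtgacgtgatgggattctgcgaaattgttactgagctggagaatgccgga
Klf15 (chr6:90462326-90462578, plus strand): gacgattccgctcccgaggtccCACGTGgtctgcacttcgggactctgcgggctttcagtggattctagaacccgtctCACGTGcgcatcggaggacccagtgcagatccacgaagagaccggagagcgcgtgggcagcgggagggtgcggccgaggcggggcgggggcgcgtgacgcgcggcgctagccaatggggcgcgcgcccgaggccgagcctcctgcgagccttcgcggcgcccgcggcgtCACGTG
The start regions of 9 members were found in the RefSeq table, and *Klf10* was not. Each was searched on both strands, in windows of 253 bases, for the E-box, the GC box (GGGCGG), the CRE (TGACGTCA), the CACCC box (CCACCC), the glucocorticoid receptor letters (AGAACA), and the MEF2 and CArG elements. The MEF2 element of *Klf2* began at -118 relative to the start, and 2.93% of 32817 promoters held one. *Klf15* held 3 E-boxes, which began at -228, -172 and -3. *Klf4*, *Klf6* and *Klf11* held 1 each, against 6.13% of all promoters with at least 1. The GC box was found in 8 of 9 members and in 33% of all promoters, and the CACCC box in *Klf2*, *Klf3*, *Klf7* and *Klf13*, 4 of 9, and in 28.3%. That of *Klf2*, at -19, lies outside the stretch shown. *Klf9* had no match to any of the 7, and no member held the CRE, CArG or glucocorticoid letters in this window, which 1.6%, 1.48% and 16.2% of all promoters held. The stretches shown were 59.7% (*Klf9*) to 73.5% (*Klf4*) G or C, and the shares over all promoters were not matched for base composition. A match is a description of the letters, not a site shown to be used.

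The libraries held between 7242717 and 16164588 counts. Levels are given as CPM, the counts relative to library size, scaled between libraries by TMM normalization. Changes are log2 fold changes (Log2FC) of GF relative to CONV-R mice with their standard error (SE), and a gene is said to rise or fall where edgeR's quasi-likelihood test gave an adjusted p under 0.05. None of the 14 tested liver sinusoidal EC (LSEC) markers passed that test in either direction with edgeR, DESeq2 or voom, although 6 were higher at an unadjusted p under 0.05. Among the genes of the sorting antibodies, *Pecam1* had a Log2FC of 0.46 (edgeR adjusted p = 0.112), *Eng* 0.26 (edgeR adjusted p = 0.336) and *Mcam* 0.37 (edgeR adjusted p = 0.0764). The summed LSEC markers overlapped, at 36100 to 43240 CPM in CONV-R and 35020 to 48640 CPM in GF mice. Of the libraries, GF 2 stood apart with 22674 genes detected, against 15456 to 18495 in the others.

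In GF mice 6 of the 10 KLF transcripts rose, 1 fell and 3 did not pass the test. *Klf9* and *Klf15* rose most, the flow-responsive *Klf2* and *Klf4* about doubled, and *Klf6* and *Klf13* rose less, whereas *Klf10* fell. Across all tested genes 4.80% rose and 2.67% fell, so that 7.48% passed in either direction. The median Log2FC of the 10 members was 0.68, beside -0.01 over all tested genes. The members were chosen with earlier results of these data known, and the study had picked *Klf9* and *Klf15* from these mice. These counts are therefore not independent evidence. For *Klf2*, *Klf4*, *Klf6*, *Klf9* and *Klf15*, the lowest GF mouse was above the highest CONV-R mouse, and 5.59% of tested genes had groups that did not overlap in 1 direction or the other. Since these are whole-sample libraries, more cells that express a gene and more RNA per cell cannot be told apart.

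**Figure D1:**
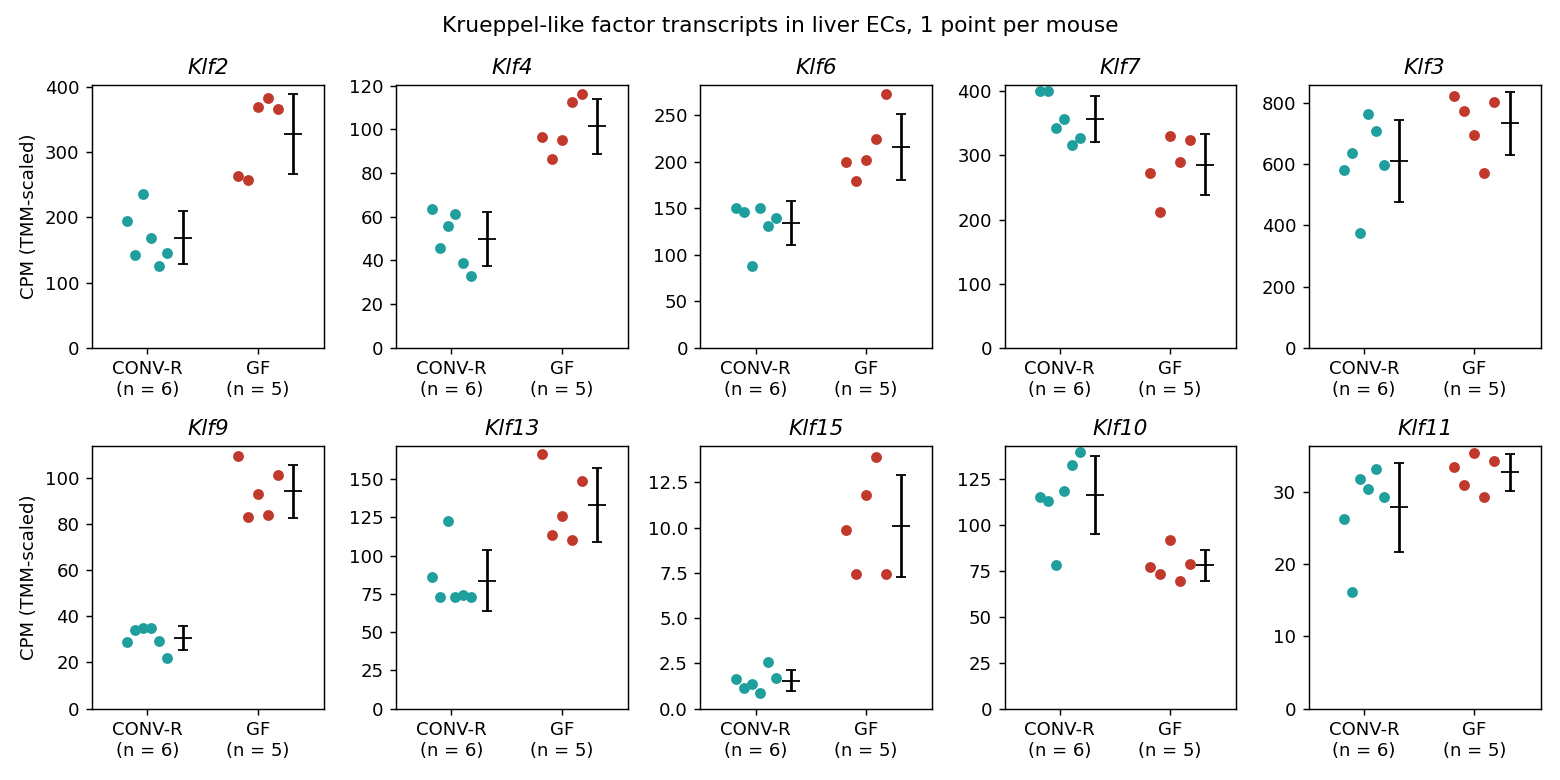
CPM of the 10 KLF genes, 1 point per mouse in order of replicate number, with the mean and SD of each group beside the points (CONV-R teal, n = 6, GF red, n = 5) and each vertical axis starting at 0. In *Klf2*, *Klf4*, *Klf6*, *Klf9* and *Klf15* every GF point lies above every CONV-R point, and in *Klf10* and *Klf13* the single mouse CONV-R 3 lies among the GF points.

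*Klf2* (chromosome 8, 72319033 to 72321656, GRCm38) encodes the factor that laminar flow induces most typically in ECs. It was read at a lowest of 125.6, a median of 157.3 and a highest of 236.1 CPM in CONV-R mice, and at 263.5, 258.0, 368.9, 383.5 and 366.5 CPM in GF mice 1, 2, 4, 5 and 6, the order used for every gene. All GF mice were above all CONV-R mice, and GF 1 and GF 2 lay closest to them. The means were 168.9 ± 40.8 (SD, n = 6) and 328.1 ± 61.9 CPM (SD, n = 5), a Log2FC of 0.96 (SE 0.16, edgeR adjusted p = 0.0015).

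*Klf4* (chromosome 4, 55527143 to 55532466) shares many endothelial targets with *Klf2* and is also one of the reprogramming factors. Its level was 32.98 at the lowest, 50.7 at the median and 63.5 CPM at the highest CONV-R mouse. GF mice had 96.7, 86.5, 95.2, 112.6 and 116.2 CPM, again with no overlap. *Klf4* was 2.04-fold higher in GF mice (Log2FC 1.03, SE 0.16, edgeR adjusted p = 0.00088). Both genes rose by nearly the same factor, so the ratio of *Klf2* to *Klf4* CPM overlapped, at 2.75 to 4.42 in CONV-R and 2.72 to 3.87 in GF mice.

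*Klf6* (chromosome 13, 5861482 to 5870394) encodes an activator known from vascular injury and from the response to tissue damage. CONV-R mice had 88.3 to 150.7 CPM (median 142.5), and GF mice 199.8, 179.3, 202.3, 224.1 and 273.2 CPM. The groups did not overlap, and CONV-R 3 was well below the other CONV-R mice. The Log2FC was 0.68 (SE 0.14, edgeR adjusted p = 0.0067), and 0.59 (edgeR adjusted p = 0.0047) without that mouse.

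*Klf7* (chromosome 1, 64029447 to 64122282), the closest relative of *Klf6* and known from neurons and fat cells, went the other way without passing the test. It stood at 316.0 to 400.5 CPM in CONV-R mice (median 349.7) and at 272.6, 212.4, 330.3, 289.7 and 323.4 CPM in GF mice. GF 4 and GF 6 were within the CONV-R range and the other 3 GF mice below it. Its Log2FC was -0.32 (95% interval -0.58 to -0.07 before adjustment, edgeR adjusted p = 0.114). *Klf7* shares 39.3% of its exon bases with *Gm26649*, a gene on the opposite strand that is listed with 0 counts, and no strand setting is stated for the counting, so reads there cannot be assigned between them.

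*Klf3* (chromosome 5, 64803388 to 64832901), which encodes a repressor that works through CtBP, had the most counts of the 10 members. It ranged from 374.6 to 765.0 CPM in CONV-R mice, around a median of 616.4, and was at 822.5, 772.0, 694.2, 571.3 and 803.9 CPM in GF mice. The groups overlapped and CONV-R 3 was the lowest. The Log2FC was 0.26 (95% interval -0.06 to 0.58, edgeR adjusted p = 0.313).

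*Klf9* (chromosome 19, 23141226 to 23168134) encodes a repressor that restrains proliferation and is a classic hormone-responsive gene. CONV-R mice had 21.7 at the lowest, 31.7 at the median and 34.8 CPM at the highest, while GF mice had 109.5, 82.9, 93.1, 84.0 and 101.2 CPM. The lowest GF mouse was thus more than 2-fold above the highest CONV-R mouse. The means were 30.6 ± 5.09 (SD, n = 6) and 94.1 ± 11.4 CPM (SD, n = 5), a Log2FC of 1.62 (SE 0.14, edgeR adjusted p = 2.2e-06). By p value *Klf9* ranked 7 among the 12905 tested genes.

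*Klf15* (chromosome 6, 90462576 to 90475238), a regulator of amino acid and glucose metabolism known from liver, muscle and heart, had the lowest level and the largest fold change of the 10 members. In CONV-R mice it was at 0.884 CPM at the lowest, 1.49 at the median and 2.58 at the highest. The GF mice were at 9.88, 7.44, 11.8, 13.9 and 7.46 CPM, all above them. These levels rest on 11 to 32 reads per CONV-R library and 55 to 152 per GF library, 114 and 513 in all. The Log2FC was 2.69 (SE 0.30, 95% interval 2.05 to 3.33, edgeR adjusted p = 3.8e-05).

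*Klf13* (chromosome 7, 63886351 to 63938915), the closest relative of *Klf9* among the 10, rose with an overlap. CONV-R mice had 73.0 to 122.8 CPM (median 73.6), and GF mice 166.7, 113.5, 126.2, 109.9 and 148.5 CPM. CONV-R 3 alone lay within the GF range, and the other CONV-R mice were at 85.7 CPM or below. The Log2FC was 0.67 (SE 0.15, edgeR adjusted p = 0.013), and 0.81 (edgeR adjusted p = 0.0008) without CONV-R 3.

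*Klf10* (chromosome 15, 38291463 to 38300706), known as an early gene of TGF-beta signalling, was the member that fell. CONV-R mice ranged from 78.6 to 139.9 CPM (median 117.2), and GF mice were at 77.4, 73.2, 91.8, 69.4 and 78.9 CPM. Again only CONV-R 3 lay within the GF range. The Log2FC was -0.58 (SE 0.14, edgeR adjusted p = 0.016), and -0.67 (edgeR adjusted p = 0.0012) without CONV-R 3. *Klf11* (chromosome 12, 24651274 to 24662789), its closest relative, had 16.2 to 33.1 CPM (median 29.9) in CONV-R mice and 33.4, 31.0, 35.4, 29.2 and 34.3 CPM in GF mice. The groups of *Klf11* overlapped and its Log2FC was 0.23 (95% interval -0.12 to 0.58, edgeR adjusted p = 0.431).

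**Figure D2:**
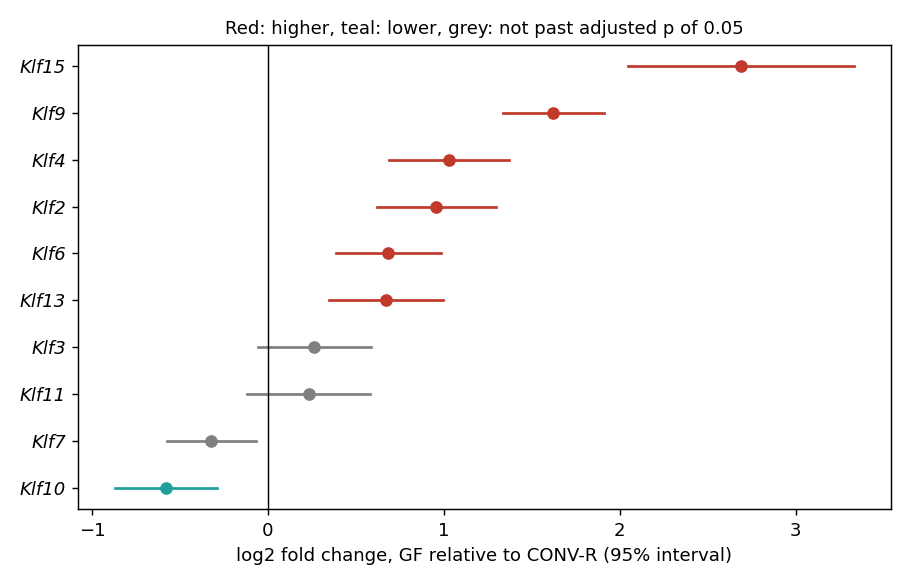
Log2FC of GF relative to CONV-R mice for the 10 KLF genes, with 95% intervals from edgeR's fit before adjustment over genes (red higher, teal lower, grey not past an adjusted p of 0.05). The values run from -0.58 for *Klf10* to 2.69 for *Klf15*.

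Leaving out CONV-R 3, GF 2 and GF 6 together, an alternative added after the values were seen, left 6 members higher and 1 lower. The same counts were obtained with each of the 11 mice left out in turn. In the values that the authors normalized, limma called 5 members higher and 0 lower, since *Klf13* (Log2FC 0.58, limma adjusted p = 0.0711) and *Klf10* (Log2FC -0.45, limma adjusted p = 0.0855) missed the threshold there.

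To compare levels between members, CPM were divided by exon length. The mean level of the 11 mice was highest for *Klf2*, at 130.6 CPM per kb, followed by *Klf3* at 59.2, *Klf7* at 39.9, *Klf6* at 39.0, *Klf4* at 24.0, *Klf10* at 23.7, *Klf13* at 14.1, *Klf9* at 12.4, *Klf11* at 6.92 and *Klf15* at 1.95 CPM per kb. *Klf2* was above *Klf3*, *Klf6* above *Klf4* and *Klf11* above *Klf15* in each of the 11 mice. *Klf3* was above *Klf7* in 10, and *Klf10* above *Klf13* in 9, among them 6 of 6 CONV-R and 3 of 5 GF mice. Other neighbours changed places between the groups. *Klf7* was above *Klf6*, and *Klf13* above *Klf9*, in 6 of 6 CONV-R and 0 of 5 GF mice, and *Klf4* was above *Klf10* in 0 of 6 CONV-R and 5 of 5 GF mice. *Klf9* was above *Klf11* in 2 of 6 CONV-R and 5 of 5 GF mice. *Klf9* was at rank 9 in CONV-R and 6 in GF mice, and *Klf10* at rank 5 and 7. *Klf2* was at 91.4 ± 22.1 CPM per kb in CONV-R and 177.6 ± 33.5 in GF mice, rank 1 in both. The summed CPM of the 10 members was 1367 to 1761 in CONV-R and 1816 to 2254 in GF mice, without overlap.

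**Figure D3:**
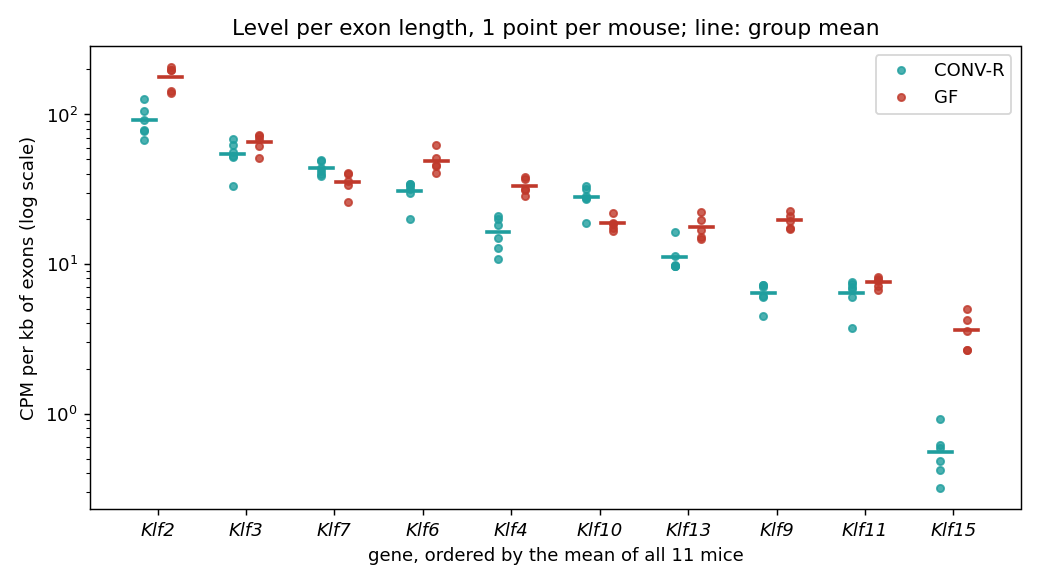
Level of each KLF gene per kb of exons, on a log axis, 1 point per mouse with a line at the group mean (CONV-R teal, GF red). *Klf2* is highest in both groups and *Klf15* lowest, and *Klf9* moves from beside *Klf11* in CONV-R to beside *Klf10* in GF mice.

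Within groups, members did not vary as one. After the group means were removed, log2 CPM of *Klf2* and *Klf4* correlated across the 11 libraries with r = 0.69 (0.71 in CONV-R and 0.74 in GF mice), and with r = 0.71 without CONV-R 3. The r of *Klf3* and *Klf10* was 0.71 (0.83 in CONV-R and 0.27 in GF mice), and 0.15 without CONV-R 3. The lowest values were -0.72 for *Klf2* and *Klf3* (-0.77 in CONV-R and -0.63 in GF mice, -0.49 without CONV-R 3) and -0.58 for *Klf10* and *Klf13*. The latter was -0.92 in CONV-R but 0.31 in GF mice, and 0.12 without CONV-R 3, so it rested on that mouse, as did the value of *Klf3* and *Klf10*. These are descriptions over 6 and 5 mice whose libraries differ in depth. CONV-R 3 was the highest CONV-R mouse for *Klf2* and *Klf13* and the lowest for *Klf3*, *Klf6* and *Klf10*. By the same measure the genes most like *Klf9* were *Osbpl2* (r = 0.93), *Gm29083* (0.85) and *Cited2* (0.85). Those most like *Klf15* were *Scly* (0.94), *Sord* (0.92) and *Alb* (0.88), and those most like *Klf4* were *RP23-478P10.3* (0.87), *Ndufv3* (0.87) and *Rnf122* (0.84). Of these genes *Gm29083* (Log2FC -1.40, edgeR adjusted p = 0.019) and *Sord* (Log2FC -0.52, edgeR adjusted p = 0.027) fell, and the others were not called. *Alb*, the albumin gene of hepatocytes, had a Log2FC of 0.23 (edgeR adjusted p = 0.6).

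Markers of other liver cells were read beside the KLFs. Kupffer cell markers were higher in GF libraries, where 7 of 11 rose and 0 fell (2 more were higher and 0 lower at an unadjusted p under 0.05, and DESeq2 and voom called 7 and 6 higher and 0 lower). Their summed level was 90.1 to 236.1 CPM in CONV-R and 207.8 to 954.6 CPM in GF mice, highest in GF 6. *Csf1r*, the receptor of the macrophage growth factor, rose by a Log2FC of 1.85 (edgeR adjusted p = 0.0059), the macrophage surface receptor *Adgre1* by 1.97 (edgeR adjusted p = 0.0095) and the complement gene *C1qb* by 1.54 (edgeR adjusted p = 0.0096). Of the 7 calls 4 were lost without GF 6 (*Clec4f*, *Vsig4*, *C1qc* and *Timd4*), and *Clec4f*, *Vsig4* and *Timd4* also lost theirs without CONV-R 2, 4 or 5. *Timd4* lost it without CONV-R 3 or GF 2 too. Without GF 6 *Klf9* had a Log2FC of 1.597, *Klf15* of 2.78, *Klf4* of 0.98 and *Klf2* of 0.92 (edgeR adjusted p = 1.4e-05, 6.9e-05, 0.0037 and 0.0063).

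**Figure D4:**
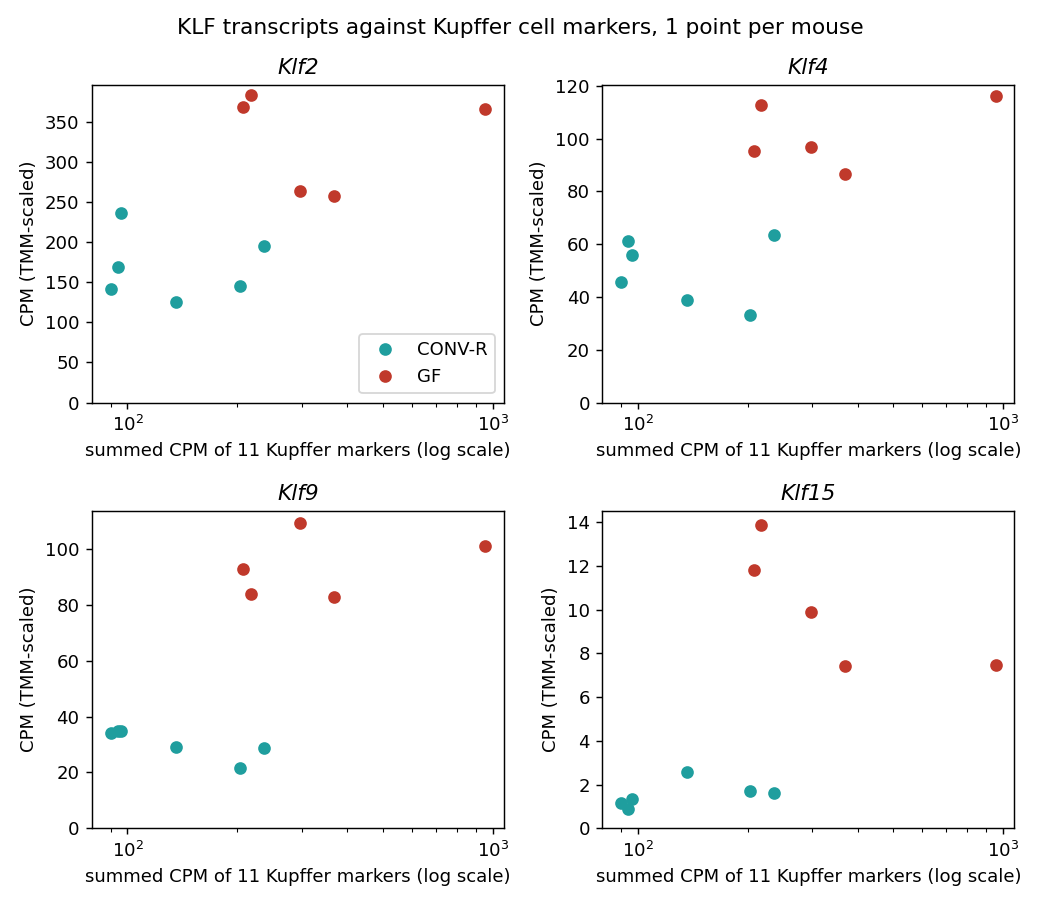
CPM of *Klf2*, *Klf4*, *Klf9* and *Klf15* (vertical axes from 0) against the summed CPM of 11 Kupffer cell markers (log axis), 1 point per mouse (CONV-R teal, GF red). In each panel the GF points lie above the CONV-R points, and along the horizontal axis the groups overlap between 207.8 and 236.1 CPM.

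None of the 10 hepatocyte markers passed the test with edgeR, DESeq2 or voom, and 1 was higher at an unadjusted p under 0.05. Their summed level was 30.6 to 72.2 CPM in CONV-R and 38.4 to 91.4 CPM in GF mice. Of the cholangiocyte markers, *Spp1* rose (Log2FC 2.50, edgeR adjusted p = 0.016, and 3.39 without CONV-R 3). *Krt19*, the other of 2 tested, had a Log2FC of 2.87 (edgeR adjusted p = 0.0959). The sum of the list was 0.137 to 8.96 CPM in CONV-R and 13.6 to 36.8 CPM in GF mice. Too few stellate cell, lymphocyte and erythroid markers had counts for more than 3, 4 and 4 tests. With edgeR 0 of them were called, and 1, 1 and 2 were lower at an unadjusted p under 0.05, with the stellate cell marker *Lrat* lower by DESeq2 and by voom. Their sums were 14.4 to 25.6, 5.79 to 14.7 and 18.2 to 34.1 CPM in CONV-R and 5.62 to 30.8, 4.54 to 7.71 and 4.48 to 22.7 CPM in GF mice. What share of the KLF differences any of these cells account for was not tested.

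In the rest of the family few genes had enough counts. Of 16 other KLF and Sp genes 15 were listed and 6 were tested, and none of the 6 was called by edgeR or voom or at an unadjusted p under 0.05. Their median Log2FC was 0.03, with *Klf12*, a CtBP-binding relative of *Klf3*, at -0.11 and the ubiquitous *Sp1* and *Sp3* at 0.22 and 0.05. *Klf5* had 9 counts over the CONV-R and 63 over the GF libraries, too few for edgeR's filter, and was the 1 gene called by DESeq2 (adjusted p = 0.037). *Klf8* had 15 and 52 counts and *Klf1*, the erythroid founder of the family, 12 and 1.

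Genes that KLF2 or KLF4 are known to act on did not move in the known directions alone. Of 18 genes that they are known to induce in ECs, 14 were tested, 3 rose and 0 fell by edgeR, while 6 were higher and 1 lower at an unadjusted p under 0.05. The lower one, the matrix protease *Adamts4* (Log2FC -0.95, edgeR adjusted p = 0.0864), was called by DESeq2 and voom, and *Palmd*, higher with a Log2FC of 1.23 (edgeR adjusted p = 0.11), was called by voom. The median Log2FC was 0.29. *S1pr1*, the sphingosine-1-phosphate receptor of ECs, rose from 146.3 ± 8.03 to 481.6 ± 74.1 CPM (Log2FC 1.72, edgeR adjusted p = 1.1e-07), but it had already been picked by the study from these mice. *Cd59a*, a complement inhibitor, rose by a Log2FC of 0.53 (edgeR adjusted p = 0.0088). *Ltbp4*, a TGF-beta binding protein, rose by 0.58 (edgeR adjusted p = 0.035), a call that was lost when any 1 of 7 mice was left out (CONV-R 2, 4, 5 and 6, GF 1, 4 and 6), with adjusted p up to 0.103. *Nos3*, the endothelial nitric oxide synthase and a textbook target, had 85.9 ± 6.58 and 97.6 ± 18.5 CPM (Log2FC 0.19, edgeR adjusted p = 0.403). *Tek*, the angiopoietin receptor, had a Log2FC of -0.01.

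Of 12 genes that KLF2 or KLF4 are known to repress, 9 were tested. Rather than falling, 5 rose and 0 fell, with a median Log2FC of 0.59, and 0 were lower by DESeq2, by voom or at an unadjusted p under 0.05. *Ctgf*, a matricellular protein that is also induced by YAP and TGF-beta, rose from 28.5 ± 12.5 to 225.5 ± 123.6 CPM (Log2FC 2.99, edgeR adjusted p = 6.1e-05). *Thbs1*, an inhibitor of angiogenesis, rose by 2.88 (edgeR adjusted p = 0.0033), the leukocyte adhesion molecule *Vcam1* by 0.91 (edgeR adjusted p = 0.00066), and *Angpt2*, the antagonist of the TIE2 receptor, by 0.59 (edgeR adjusted p = 0.0096). *Cav1*, the caveolar coat protein, rose by 0.61 (edgeR adjusted p = 0.026) and lost the call without CONV-R 2, 4 or 5 or without GF 2, 5 or 6, with adjusted p up to 0.0795. With voom 3 of the 5 calls were made, and *Thbs1* (voom adjusted p = 0.052) and *Cav1* (voom adjusted p = 0.0501) missed the threshold. *Ctgf* too had been picked by the study from these mice.

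**Figure D5:**
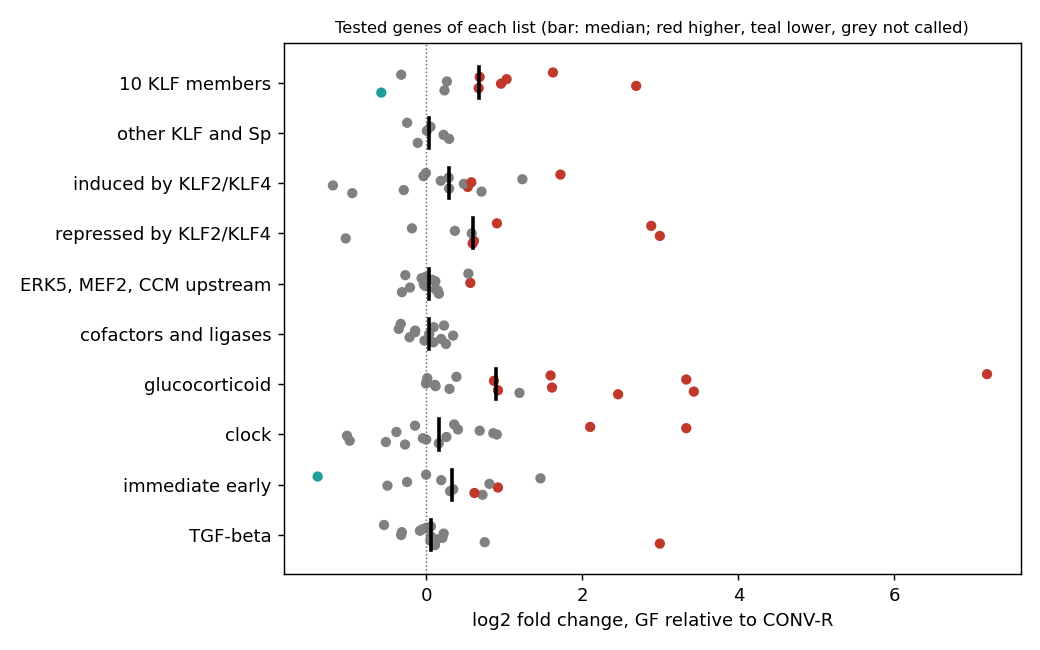
Log2FC of GF relative to CONV-R mice for every tested gene of the 10 KLF members and 9 related lists, 1 point per gene, with a bar at the median (red higher, teal lower, grey not called). The KLF2 and KLF4 targets known as repressed have 5 red points and no teal one, and the glucocorticoid list has 8 red points.

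Of the cascade that leads from flow to *Klf2* and *Klf4*, 1 gene passed the test. All 14 of its listed genes were tested, 1 rose and 0 fell, with a median Log2FC of 0.03. The 1 gene was *Map3k3*, which encodes MEKK3 (Log2FC 0.56, edgeR adjusted p = 0.049), and its call was lost without CONV-R 3, 4, 5 or 6 or without GF 1, 2, 4 or 6, with adjusted p up to 0.111. The flow-gated channel *Piezo1* had a Log2FC of 0.54 (edgeR adjusted p = 0.0663), while *Mapk7*, which encodes ERK5, was at 0.12 and *Mef2c* at -0.06. At an unadjusted p under 0.05 there were 2 higher genes and 1 lower gene, and by DESeq2 and voom *Map3k3* and *Piezo1* were higher and 0 lower. None of the 13 cofactors and ubiquitin ligases, among them *Ctbp1*, *Sin3a*, *Ep300* and *Wwp1*, passed with edgeR, DESeq2 or voom, and 2 were higher and 1 lower at an unadjusted p under 0.05. Their median Log2FC was 0.04.

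Several genes that glucocorticoids are known to induce rose along with *Klf9* and *Klf15*. *Nr3c1*, which encodes the glucocorticoid receptor, had 346.2 ± 21.2 and 346.2 ± 41.5 CPM (95% interval of the Log2FC -0.21 to 0.21). Of its 17 listed genes, the receptor included, 16 were tested, 8 rose and 0 fell, with a median Log2FC of 0.89, and 0 were lower by DESeq2, by voom or at an unadjusted p under 0.05. Besides the receptor, those not called were *Cebpd* (Log2FC 1.19), *Sgk1* (0.39), *Errfi1* (0.30), *Mt1* (0.12), *Mt2* (0.11), *Sesn1* (0.01) and *Nfkbia* (-0.003). With 1 mouse left out 7 to 9 were called, and with at least 10 counts in every library 6 of 12. *Angptl4*, 1 of the 8, lost its call without CONV-R 2 or 4 or without GF 1 or 2. *Fkbp5*, a chaperone of the receptor, rose from 39.8 ± 6.48 to 121.4 ± 15.8 CPM (Log2FC 1.61, edgeR adjusted p = 1.5e-06). *Tsc22d3*, which encodes the anti-inflammatory protein GILZ, rose from 49.6 ± 6.06 to 149.7 ± 29.0 CPM (Log2FC 1.59, edgeR adjusted p = 2.2e-06). The transcription factor *Zbtb16* rose from 9 counts over the CONV-R to 1180 over the GF libraries (edgeR adjusted p = 3.6e-06), or 0.115 ± 0.0804 and 19.2 ± 17.39 CPM, and its Log2FC of 7.19 was 6.52 without GF 1. *Zbtb16* passed the count filter only through its GF libraries, so the size of its fold change is uncertain. Several of these genes, and *Klf9* and *Klf15* themselves, had been picked by the study from these mice, so the count is not independent evidence of the direction.

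Of the clock genes, both that rose were Period genes. Of 18 genes 17 were tested, 2 rose and 0 fell, with a median Log2FC of 0.16, and 4 were higher and 1 lower at an unadjusted p under 0.05. Besides both called genes, the higher ones were *Nr1d1* (Log2FC 0.68, edgeR adjusted p = 0.202) and *Hlf* (Log2FC 0.90, edgeR adjusted p = 0.13). The lower one was *Ciart*, a repressor of the clock (Log2FC -0.98, edgeR adjusted p = 0.0689), which was called by DESeq2 but not by voom. *Per1*, a negative arm gene that glucocorticoids also induce, rose from 8.62 ± 4.75 to 87.9 ± 23.5 CPM (Log2FC 3.33, edgeR adjusted p = 8.7e-06). *Per2* rose from 8.36 ± 4.17 to 36.0 ± 12.9 CPM (Log2FC 2.10, edgeR adjusted p = 0.00088). *Arntl*, which encodes BMAL1, had a Log2FC of -0.27 (edgeR adjusted p = 0.336), and *Per3* one of -0.15 (edgeR adjusted p = 0.690). The time of day at which the mice were killed is not given in the sources used here.

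*Klf2*, *Klf4*, *Klf6* and *Klf10* can also respond early when tissue is dissociated, so immediate early genes were read beside them. Of 19 such genes 14 were listed and 12 tested, 2 rose and 1 fell, with a median Log2FC of 0.33. *Jun*, *Jund*, *Ier2*, *Hspa1a* and *Hspa1b* were not listed, so they could not be read. The early gene *Nr4a1* was also higher by DESeq2 (adjusted p = 0.0186), though not by edgeR (Log2FC 1.46, adjusted p = 0.0626) or voom (adjusted p = 0.133). *Dusp1*, a MAP kinase phosphatase that is a glucocorticoid target too, rose from 235.8 ± 39.8 to 445.5 ± 50.1 CPM (Log2FC 0.92, edgeR adjusted p = 0.00019), and the antiproliferative *Btg2* rose by 0.62 (edgeR adjusted p = 0.011). *Socs3*, an inhibitor of cytokine signalling, fell by 1.39 on the log2 scale (edgeR adjusted p = 0.028), a call lost without CONV-R 4 or 5 or without GF 2, 4 or 6, with adjusted p up to 0.0649. The summed level of the list was 338.3 to 554.7 CPM in CONV-R and 565.4 to 873.1 CPM in GF mice, without overlap. *Dusp1* had the highest mean CPM of the list. Without it the sums of the other 13 listed genes overlapped, at 148.5 to 297.0 CPM and 178.3 to 347.3 CPM. The part of dissociation in the KLF values was not tested.

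TGF-beta genes, to which *Klf10* and *Klf11* belong as early targets, were read beside them. Of 16 genes 15 were tested, and *Ctgf* alone rose by edgeR and voom, while DESeq2 also called *Id1*, a target of BMP signalling (Log2FC 0.75, edgeR adjusted p = 0.0715). None fell by these tools, 2 were lower at an unadjusted p under 0.05, and the median Log2FC was 0.06. *Tgfbr2*, the receptor that binds the ligand, had a Log2FC of 0.06, and *Smad7*, the feedback inhibitor, one of -0.31 (edgeR adjusted p = 0.287).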

How the data were processed

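RNA of sorted liver ECs from 6 CONV-R and 5 GF mice was analysed as deposited. The raw counts per gene were made by the authors with Trim Galore, STAR on mm10 (GRCm38) and featureCounts; 1 more GF library was left out by them for few mapped reads. The authors also deposited log2 values normalized with DESeq, used as an alternative only. The sample labels and the paper name different library kits. Counts were filtered with filterByExpr and scaled by TMM in edgeR 4.0.16 (R 4.3.3). GF and CONV-R mice were compared by its quasi-likelihood test, with p values adjusted after Benjamini and Hochberg for all tested genes and a threshold of 0.05. Alternatives used DESeq2 1.42.0, limma 3.58.1, other filters and scalings, and left-out mice. CPM per kb used GENCODE M21 exon lengths. The tests were tried on simulated counts.

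The members and lists were chosen with earlier results of these data known. Named genes were all members, the called genes of each list with the smallest p (at most 3 per direction, all where 5 or fewer were called), the 3 genes most correlated with *Klf9*, *Klf15* and *Klf4*, and the sorting markers; other genes named as examples were added after their values were seen. Totals of 7242717 to 16164588 counts limit the precision of weak genes such as *Klf15*. Replicate numbers were not used to pair mice in the main test. Of 5 same-numbered pairs 1 deviated together with r over 0.1, which cannot decide whether the numbers pair mice.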

Additional observations from a re-analysis of the deposited data

Results flagged for a closer look

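Of 20 sets of values, the 10 members in each of both groups, 2 held a mouse far from the others by Dixon's criterion, which chance meets in about 1 of 20. Both were CONV-R 3. Its *Klf6* level of 88.3 CPM was the lowest of the group, with the nearest mouse at 130.4 CPM, and its *Klf13* level of 122.8 CPM the highest, with the nearest at 85.7 CPM. Both genes remained higher in GF mice without it (Log2FC 0.59 and 0.81, edgeR adjusted p = 0.0047 and 0.0008).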

How the results depend on the processing

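Across 21 alternatives, 208 of 210 checks of the 10 members kept their direction and their side of the threshold, and 0 changed sign. The exceptions were *Klf10* (Log2FC -0.45, adjusted p = 0.0855) and *Klf13* (Log2FC 0.58, adjusted p = 0.0711) by limma on the authors' normalized values, which gave 5 higher and 0 lower members, and 453 genes called in all against 965. With DESeq2 1527 genes were called, and with CONV-R 3, GF 2 and GF 6 left out together, added after the data were seen, 565. With 1 mouse left out the count ran from 622 (without GF 6) to 1260, and was 625 without CONV-R 4; members stayed at 6 higher and 1 lower throughout.

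Counts of the small lists moved by 1 to 3 genes. Genes induced by KLF2 or KLF4 had 3 calls, 5 with voom or no filter and 2 to 5 with 1 mouse left out. Repressed genes had 5, and 3 with voom or the normalized values. The upstream cascade had 1, 2 with DESeq2, voom or no filter, 0 with the normalized values or the 3 mice left out, and 0 to 2 with 1 left out. Other KLF and Sp genes had 0, and 1 with DESeq2 or no filter. Cofactors had 0, 1 with the 3 mice left out, and 0 to 1 with 1 left out. TGF-beta genes had 1, 2 with DESeq2, no filter or the 3 mice left out, and 1 to 2 with 1 left out. The cause of these moves was not tested.

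A block for the replicate number, fitted to the mice whose number occurs in both groups, called 1101 genes, and 6 induced, 3 upstream, 1 cofactor and 2 TGF-beta genes. Without the block the same mice, which are all but CONV-R 3, gave 931 genes, and 5, 0, 1 and 2 of those lists. That alternative was added after the data were seen. The block changed no call of a member. Of 5 same-numbered pairs 1 had r over 0.1 (range -0.01 to 0.20), and 1 mouse correlated best with its own number. Correlations over so few mice cannot decide whether equal numbers mark mice handled together. Depth limits *Klf15* in CONV-R mice, with 11 to 32 counts per library.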
